A study of Mus musculus with 2 samples.

Results

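RNA-seq counts of 9 genes of epithelial adhesion and epithelial-mesenchymal transition (EMT) were compared between 2 libraries of cultured mouse mammary basal cells. The genes were Cdh1, Cdh2, Cdh3, Vim, Fn1, Zeb1, Zeb2, Snai1 and Twist1, taken by name from the 49492 genes of the deposited table, and all 9 were found. The basal cells were sorted (lin-CD24+CD29hi) from adult female wild-type mammary glands and grown in 3D matrix gel for 10 days. The control library came from cells without added cytokine, and the TNF-α library came from cells given recombinant mouse TNF-α at 10 ng/mL. The common medium of the study, which contains EGF, insulin, transferrin and selenium, was the base for both. How many mice or cultures went into a library is not given in the sources used here. Since only 1 library stood for each condition, differences were not checked against replicates and carry no p-value, and an effect of TNF-α and a difference between single cultures cannot be told apart.

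In EMT, epithelial cells give up E-cadherin junctions and take up mesenchymal genes such as N-cadherin, vimentin and fibronectin. Transcription factors of the Snail, ZEB and Twist families bind E-box sequences and are known to repress Cdh1, the E-cadherin gene. Mammary basal cells have traits of both states, since they are epithelial cells that also make smooth muscle proteins and vimentin, and P-cadherin marks this layer in the gland. TNF-α is known to promote EMT in several epithelial and tumor cell lines, often together with TGF-β.

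Zeb2 was 2.04-fold, Zeb1 1.88-fold and Fn1 1.58-fold higher in the TNF-α library, and the 3 cadherins differed by less than 1.5-fold. Among the 9 genes, Zeb2 alone, 1 gene, passed 2-fold upward and 0 passed it downward. Of the 20771 genes whose counts in the pair of libraries added up to 10 or more, 8.56% passed 2-fold upward and 6.62% downward. With a fold of 1.5, 3 of the 9 genes were higher (Zeb2, Zeb1 and Fn1) and 0 lower, against 15.5% and 13.7% of all genes. The median log2 ratio of the 9 genes was 0.19, and that of all genes was 0.0038. The log2 ratio is that of TNF-α to control CPM (counts per 1000000 of the scaled library size), with a prior count of 2 added to each gene. Each ratio has a 95% Clopper-Pearson interval that covers counting error only and takes every count as independent. Even counts were in excess, a pattern of read ends counted singly. If read ends were so counted, the intervals printed without halving are too narrow, those of shares and of ratios of 2 genes included. Reads copied by PCR need not stem from separate molecules, and the paper does not say whether molecular identifiers were used. The spread between cultures is left out of the interval too. This interval lay above 0 for 6 of the 9 genes, below 0 for 1 and across 0 for 2. Of all genes, 28.9% had it above 0 and 27.8% below. The 2 sets are not alike in depth, since all genes reach down to 10 counts and fewer counts widen the interval. With halved counts, as for read ends counted singly, the Cdh2 interval ran from -0.028 to 0.19 and so included 0. Those of Cdh1, Vim, Fn1, Zeb1 and Zeb2 stayed above 0, and that of Zeb2 ran from 0.84 to 1.23. The bulk values do not separate fewer cells of a type from less RNA per cell, which cannot be told apart.

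**Figure D1:**
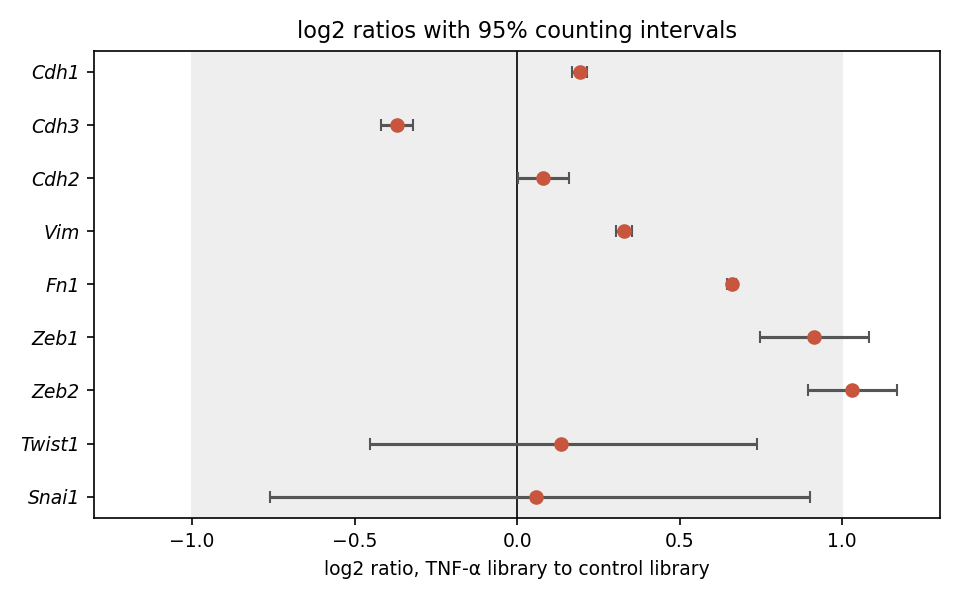
Points give the log2 ratio of the TNF-α library to the control library for each of the 9 genes, and bars give the 95% interval for counting error (1 library per condition). The grey band spans 2-fold in either direction. Zeb2 lies just outside it at 1.03, Cdh3 lies on the lower side at -0.37, and the widest bars belong to Snai1 and Twist1.

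The control library held 44462275 counts and the TNF-α library 53487087, so 10 counts are worth 0.224 and 0.187 CPM after scaling. Markers of mammary basal cells were abundant in both libraries, with Krt14 at 5156 CPM in the control and 4871 CPM with TNF-α. Luminal markers were present too, as is known for colonies grown from basal cells, and Krt8 stood at 1213 and 1132 CPM. By flow cytometry, the paper found mostly luminal cells in the control colonies of its co-culture experiment. It also reported a larger share of basal cells in colonies grown with TNF-α. The libraries are therefore of mixed colonies grown from basal cells. The 9 fibroblast markers summed to 546 CPM in the control and 544 CPM with TNF-α, with Col1a1 the highest per length at 17.3 RPKM in the control. The 7 endothelial markers summed to 8.55 and 7.74 CPM, and the 8 leukocyte markers to 8.23 and 6.54 CPM. Per length the endothelial Cdh5 (0.598 RPKM) and the myeloid Lyz2 (2.02 RPKM) led these lists in the control. Cd3e, a T cell gene, was at 0 in both libraries, and the leukocyte gene Ptprc had 26 and 38 counts.

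Per length, the 9 genes fell into 3 tiers in both libraries. Levels between genes are given as RPKM, the CPM divided by the deposited exon length in kilobases. In the control Cdh1 stood at 129 RPKM, Fn1 at 111 RPKM and Vim at 99.9 RPKM. Cdh3 followed at 33.8 RPKM and Cdh2 at 6.66 RPKM. The 4 transcription factor genes were lowest, with Zeb1 at 0.932, Zeb2 at 0.693, Twist1 at 0.611 and Snai1 at 0.332 RPKM. With TNF-α, Fn1 was first at 176 RPKM, ahead of Cdh1 at 148 and Vim at 126 RPKM, and the order of the remaining 6 was that of the control. The order depends on the length used. On the longest GENCODE M21 transcript of each gene, Vim came first in both libraries, at 216 RPKM in the control and 272 RPKM with TNF-α. Zeb1 and Zeb2 then stood at 1.62 and 1.51 RPKM in the control and at 3.06 and 3.10 RPKM with TNF-α. The deposited length of Zeb2 is 19942 bases against 9124 for that transcript, which lowers its RPKM on the first scale.

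**Figure D2:**
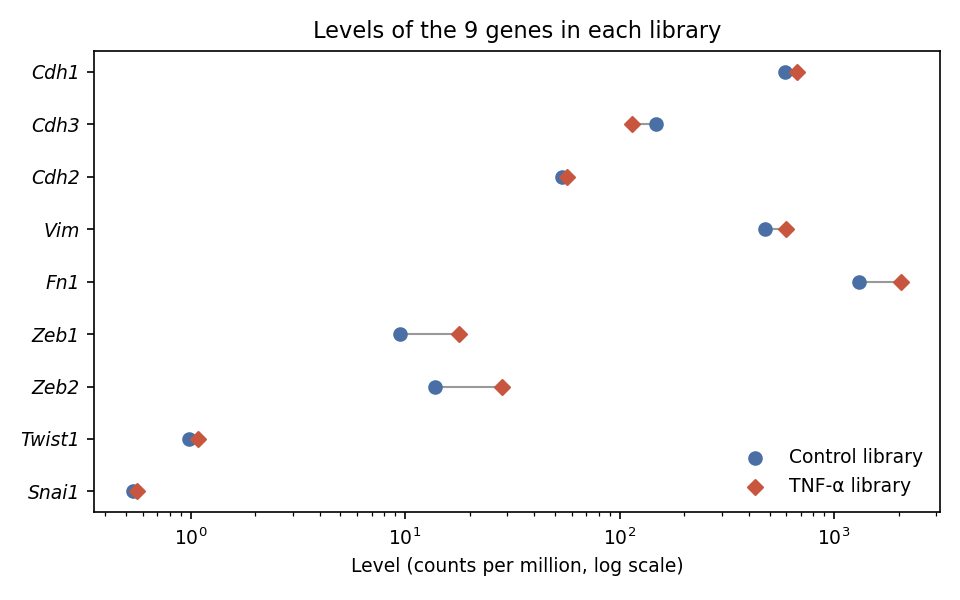
Each row is 1 gene, with its level in CPM on a log axis in the control library (circle) and the TNF-α library (diamond). Fn1 moved from 1303 to 2058 CPM, whereas Snai1 and Twist1 stayed near or below 1 CPM in both libraries.

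Cdh1 and Cdh3, which lie close together on chromosome 8, differed in opposite directions. On GRCm38, Cdh3 lies at chr8:106510891-106557297 and Cdh1 at chr8:106603351-106670246, both on the plus strand, 46053 bases apart and with 2 annotated genes between them. Cdh1, which encodes E-cadherin, the main adhesion molecule of epithelial adherens junctions, had 26310 counts in the control library and 36015 with TNF-α (590 and 675 CPM). It was 1.14-fold higher with TNF-α, with a log2 ratio of 0.19 and a 95% interval from 0.17 to 0.22. Cdh3, which encodes P-cadherin, had 6607 counts in the control and 6125 with TNF-α (148 and 115 CPM). Its log2 ratio was -0.37 (95% interval -0.42 to -0.32), the only value under 0 among the 9 genes. Within a library the balance of 2 genes does not depend on the scaling. Cdh3 made up 20.1% of the summed Cdh3 and Cdh1 counts in the control (95% interval 19.6 to 20.5) and 14.5% with TNF-α (14.2 to 14.9).

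Cdh2 encodes N-cadherin, the cadherin that mesenchymal and neural cells use. It spans positions 16588877 to 16809246 of chromosome 18 (GRCm38, minus strand). The control library held 2393 of its counts and the TNF-α library 3031, or 53.7 and 56.8 CPM. Its log2 ratio was 0.08 (95% interval 0.0034 to 0.16). When the counts were halved, as for read ends counted singly, its interval ran from -0.028 to 0.19 and so included 0. Cdh2 was 8.34% of the summed Cdh2 and Cdh1 counts in the control (95% interval 8.02 to 8.66) and 7.76% with TNF-α (7.50 to 8.03). The ratio of Cdh2 to Cdh1 changed by -0.11 on the log2 scale (95% interval -0.19 to -0.03), and with halved counts this interval, from -0.23 to 0.0020, included 0 as well.

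Of the 20 other genes named Cdh with a number, 10 reached 10 counts. Of these 10, 0 were more than 2-fold higher and 2 more than 2-fold lower, against 8.56% and 6.62% of all genes compared. Their median log2 ratio was -0.17. The sign of that median turned with no filter on low counts, to 0.11. Cdh11, a cadherin of mesenchymal cells, had the highest log2 ratio of these 10 at 0.77 (95% interval from 0.70), with 2056 counts in the control and 4207 with TNF-α. Per length it passed Cdh2, with 5.18 RPKM against 6.66 RPKM in the control and 8.85 RPKM against 7.04 RPKM with TNF-α. Relative to Cdh1 it was higher by 0.58 on the log2 scale (95% interval 0.50 to 0.66). The 2 lower genes were Cdh13, which encodes a cadherin anchored by a lipid and had 220 counts in the control and 130 with TNF-α, and Cdh19, with 70 and 35 counts. Their log2 ratios were -1.01 and -1.21, and Cdh13 fell short of 2-fold under 5 alternatives, with values from -0.998 to -0.94. Across all 23 numbered cadherins, Cdh1 gave 72.5% of the summed RPKM in the control and 76.7% with TNF-α, Cdh3 19.0% and 13.6%, and Cdh2 3.74% and 3.66%.

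**Figure D3:**
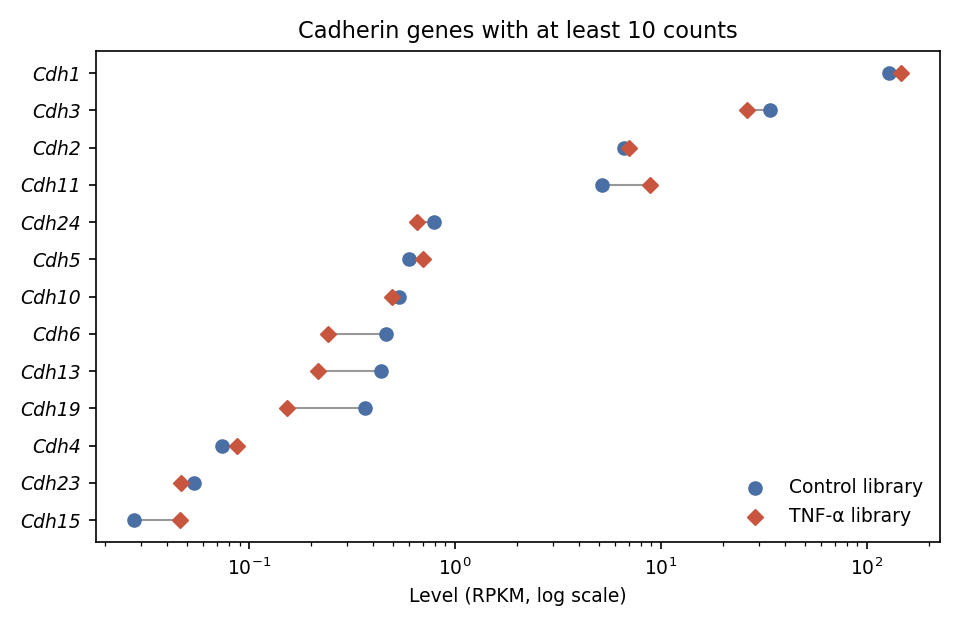
Each row is a cadherin gene with at least 10 counts, with its level in RPKM on a log axis in the control library (circle) and the TNF-α library (diamond), ordered by the control level. Cdh1 is highest in both libraries, and Cdh11 passes Cdh2 with TNF-α (8.85 against 7.04 RPKM).

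Inside the cell, cadherins are held by catenins, and nectins form a parallel adhesion system at the same junction. Of 15 such genes, 14 reached 10 counts. Among these 14, 0 were more than 2-fold higher or lower, against 8.56% and 6.62% of all genes compared. Their median log2 ratio was -0.0045. The highest was Ctnnd1, which encodes p120 catenin, a stabilizer of cadherins at the membrane. It had 13719 counts in the control library and 22492 with TNF-α, a log2 ratio of 0.45. The lowest was its relative Arvcf at -0.87, with 2129 and 1393 counts.

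Vim encodes vimentin, the intermediate filament of mesenchymal cells, and lies at chr2:13573927-13582826 on the plus strand. It had 21126 counts in the control library and 31781 with TNF-α, or 474 and 596 CPM. The gene was 1.26-fold higher with TNF-α, with a log2 ratio of 0.33 and a 95% interval from 0.30 to 0.35. The 8 genes for related filaments, lamins and the linker plectin had a median log2 ratio of -0.03. Among these 8, 0 were more than 2-fold higher and 1 more than 2-fold lower, against 8.56% and 6.62% of all genes compared. Synm, which encodes the filament protein synemin, was the lower one at -1.87, with 1794 counts in the control and 588 with TNF-α. Nes, which encodes nestin, a filament protein of progenitor cells that assembles with vimentin, was highest at 0.77 (4246 and 8661 counts).

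Fn1 encodes fibronectin, a matrix protein that cells bind through integrins. The gene lies at chr1:71585520-71653200 on the minus strand and had the most counts of the 9. It had 58047 counts in the control library and 109816 with TNF-α, and its log2 ratio was 0.66 (95% interval 0.65 to 0.67). Summed over the 9 genes, the level went from 2594 to 3548 CPM, and Fn1 gave 79.2% of that difference. Exons of Apol7d on the opposite strand share 292 bases with Fn1, and 2321 and 4204 counts were listed under that gene. Whether the counting used the strand is not given in the sources used here, so reads of these bases cannot be assigned. After a correction for GC content and length the Fn1 log2 ratio was 0.82.

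The median log2 ratio of 15 fibronectin receptors and matrix partners was 0.21. Of these, 3 were more than 2-fold higher and 1 more than 2-fold lower, against 8.56% and 6.62% of all genes compared. Itga4, the α4 integrin subunit best known from leukocytes, was highest at 2.45, with 26 counts in the control and 180 with TNF-α. Fbln1, which encodes the matrix protein fibulin-1, and Itgb6, an epithelial integrin subunit that binds fibronectin and activates latent TGF-β, stood at 1.52 and 1.05. The lowest was Itga8, the α8 subunit of mesenchymal and smooth muscle cells, at -1.40 (4555 and 2071 counts). Itga5, the α5 subunit of the classical fibronectin receptor and chosen after its values were seen, had 949 and 1995 counts, a log2 ratio of 0.81.

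Zeb1 and Zeb2 encode zinc finger repressors of Cdh1 and other epithelial genes. They had the highest log2 ratios of the 9 genes. Zeb1 lies on chromosome 18 from 5591860 to 5775467 and had 420 counts in the control library and 948 with TNF-α, or 9.42 and 17.8 CPM. Its log2 ratio was 0.91 (95% interval 0.75 to 1.08). Zeb2, at chr2:44983632-45117395 on the minus strand, had 616 and 1507 counts, or 13.8 and 28.2 CPM. It was 2.04-fold higher with TNF-α, with a log2 ratio of 1.03 and a 95% interval from 0.89 to 1.17. Both intervals contain 1, so these counts do not place either gene firmly on one side of 2-fold.

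The balance between Zeb1 and Zeb2 differed little between the libraries, with Zeb1 at 40.5% of their summed counts in the control (95% interval 37.5 to 43.6) and 38.6% with TNF-α (36.7 to 40.6), and the log2 change of their ratio had a 95% interval from -0.33 to 0.10. Relative to Cdh1, Zeb1 was higher with TNF-α by 0.72 on the log2 scale (95% interval 0.55 to 0.89) and Zeb2 by 0.84 (0.70 to 0.97). Of all genes compared, 9.54% had a log2 ratio above that of Zeb1 and 8.20% above that of Zeb2. These shares include genes with few counts, whose ratios scatter more. Of the 13609 genes with at least 200 counts over both libraries, 4.01% were more than 2-fold higher and 2.87% more than 2-fold lower. The antisense gene Zeb2os shares 467 exon bases with Zeb2 and had 5 counts in the control and 23 with TNF-α.

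ZEB mRNAs are the best known targets of the miR-200 family, microRNAs of epithelial cells that pair with sites in the 3′ UTR. The 5 mature members are shown because their seeds, bases 2 to 8 in capitals, define the sites searched for in both ZEB mRNAs (sequences from RefSeq, GRCm38.p6, written 5′ to 3′). The first 3 share the seed AAUACUG and the last 2 share AACACUG.
mmu-miR-200b-3p: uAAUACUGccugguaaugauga
mmu-miR-200c-3p: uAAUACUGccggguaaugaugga
mmu-miR-429-3p: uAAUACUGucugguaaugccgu
mmu-miR-200a-3p: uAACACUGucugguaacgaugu
mmu-miR-141-3p: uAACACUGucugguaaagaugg

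In the longest annotated 3′ UTR of Zeb2 (4941 bases, GENCODE M21), the site for the first seed, CAGTATT, occurred 5 times and the site for the second, CAGTGTT, 4 times. Both were searched on the mRNA strand and do not overlap. The first occurrence of each is shown with 10 bases on either side and the seed match in capitals. The site for the second seed lies at chr2:44988348-44988374 and that for the first at chr2:44988164-44988190, both on the minus strand of GRCm38 in the 3′ UTR of Zeb2.
Zeb2, site for AACACUG: aaattttgtaCAGTGTTaaggcctaaa
Zeb2, site for AAUACUG: taccatacatCAGTATTttattattat

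Of 821 other 3′ UTRs at least as long, cut to the same length, 38.6% held CAGTATT and 51.6% held CAGTGTT, while 0% and 1.10% held it as often as Zeb2 or more often. The 3′ UTR of Zeb1 (2401 bases) also held 5 and 4 sites, and of 4148 others cut to that length 22.7% and 31.3% held the respective site, and 0.0241% and 0.121% held it as often as Zeb1 or more often. These 4148 included Zeb2, whose 5 CAGTATT sites start at positions 393 to 1039 of its 3′ UTR. Zeb2 is therefore part of the 0.0241%. A match describes the letters and not binding. The mature microRNAs were not measured here. The precursor genes Mir200a, Mir200b and Mir200c had 0 counts in both libraries, where 3 counts are worth 0.0673 CPM in the control and 0.0562 CPM with TNF-α. Mir141 had 2 and 1 counts, and Mir429 had 4 and 7.

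Snai1 and Twist1 were the most lowly expressed of the 9 genes. Snai1 encodes Snail, a zinc finger repressor of Cdh1, and lies at chr2:167538195-167542814 on the plus strand. It had 24 counts in the control library and 30 with TNF-α, or 0.539 and 0.562 CPM. Its log2 ratio was 0.06 (95% interval -0.76 to 0.90), and 80.6% of all genes compared had a ratio inside that interval. Twist1 encodes a basic helix-loop-helix factor and lies at chr12:33957671-33959817 on the plus strand. It had 44 and 58 counts, or 0.987 and 1.09 CPM, and a log2 ratio of 0.13 (95% interval -0.45 to 0.74). A difference inside these intervals was not detectable at this depth. With counts halved, the interval widened to -1.13 to 1.29 for Snai1 and to -0.71 to 1.01 for Twist1, so that both then reached past 2-fold.

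**Figure D4:**
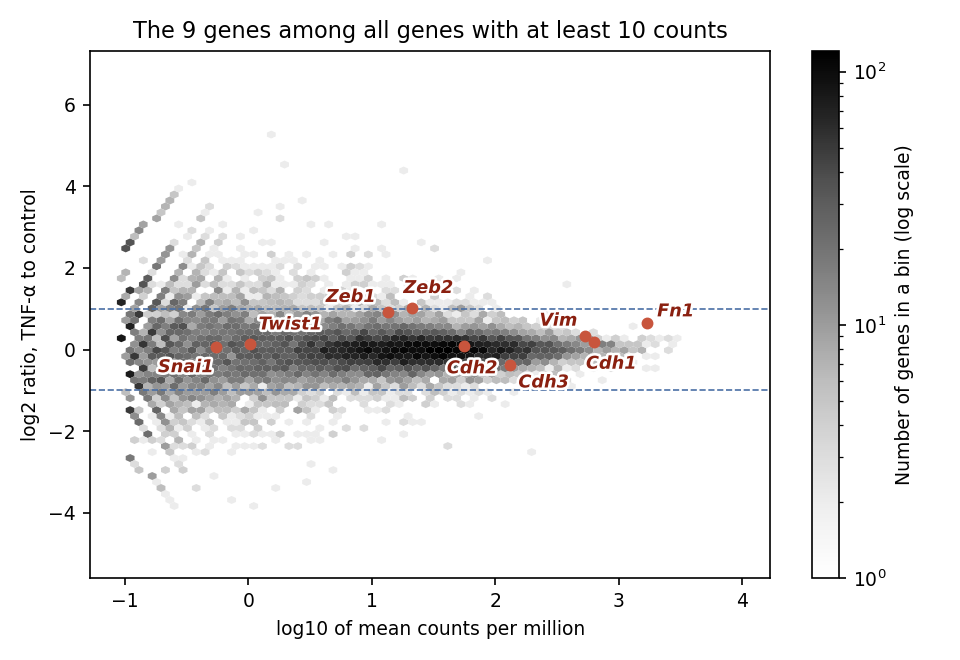
Grey bins count the 20771 genes with at least 10 counts by mean level (log10 CPM, horizontal) and log2 ratio of TNF-α to control (vertical), with dashed lines at 2-fold and the 9 genes in red. Zeb1 and Zeb2 sit near the upper line at middle levels, Fn1 lies far to the right at 0.66, and Snai1 and Twist1 lie where ratios scatter widely.

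Of 12 other transcription factors known to promote EMT, 9 reached 10 counts, with a median log2 ratio of -0.14. Among these 9, 3 were more than 2-fold higher and 0 more than 2-fold lower, against 8.56% and 6.62% of all genes compared. The median turned to 0.23 with halved counts and to 0.08 with the correction for GC content and length. Hmga2, a chromatin protein of embryonic and tumor cells, had the highest log2 ratio at 3.39, with 50 counts in the control library and 647 with TNF-α. Prrx1, a homeobox factor of mesenchyme, stood at 1.26 (884 and 2532 counts). The third was Twist2 at 1.27, with 10 and 32 counts, chosen after its values were seen. The lowest was Tcf4, an E protein that pairs with Twist proteins, at -0.57 (3443 and 2779 counts). Snai2, which encodes Slug and was chosen after its values were seen, was the Snail family gene with the most counts. Its 1532 and 1385 counts gave a log2 ratio of -0.40, and it stood at 16.9 RPKM in the control against 0.332 RPKM for Snai1.

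The listed factors known to hold the epithelial state stayed within 2-fold, as most genes did. Of 11 such genes, 0 were more than 2-fold higher or lower, against 8.56% and 6.62% of all genes compared. In this list 3 log2 ratios lay above 0 and 8 below, and the median was -0.13. Of all genes compared, 50.6% lay above 0. Ovol1, a zinc finger repressor of Zeb1, was highest at 0.10 (290 counts in the control and 372 with TNF-α), and Grhl1, a grainyhead factor of epithelial barriers, was lowest at -0.62 (4218 and 3291 counts). Of 12 cofactors and modifiers of Snail and ZEB proteins, 0 were past 2-fold and the median was 0.09. They ran from -0.18 for Btrc, a ubiquitin ligase subunit that marks Snail for degradation, to 0.48 for Ctbp2, a corepressor that ZEB proteins recruit.

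The broader readouts of the 2 states were set beside the 9 genes. Of 25 mesenchymal genes, 5 passed 2-fold upward and 1 downward, with a median log2 ratio of 0.15. The median was 0.29 over genes with at least 1 CPM in a library and 0.30 with the correction for GC content and length. Loxl2, which encodes an enzyme that crosslinks collagen, was highest at 1.75 (373 counts in the control and 1509 with TNF-α). Dcn, the proteoglycan decorin, stood at 1.39, and Tgfbi, a matrix protein induced by TGF-β, at 1.23. Mmp2, a gelatinase, was lowest at -1.83, with 4066 and 1364 counts. Ncam1, a neural adhesion molecule, also passed 2-fold upward, with 322 and 813 counts, and was chosen after its values were seen. Of 22 epithelial genes, 0 were past 2-fold and the median was -0.06. They ran from Krt19, a luminal keratin, at -0.84 to the claudin gene Cldn3 at 0.42. Of the 22, 10 had log2 ratios above 0 and 12 below, and 3 are also on the list of luminal markers. Over the summed counts of the 22 genes the log2 ratio was -0.32, and over those of the 25 mesenchymal genes it was 0.07. Such a sum follows the genes with the most counts. The 10 lists described here held 126 genes with at least 10 counts, with genes of several lists counted once. Of these, 11 were more than 2-fold higher and 5 more than 2-fold lower, and their median was 0.0081. Over all genes compared, 8.56% were more than 2-fold higher and 6.62% more than 2-fold lower. These shares are the background for each single list too, markers included. They include genes with few counts, whose ratios scatter more. Of genes with at least 200 counts over both libraries, 4.01% were more than 2-fold higher and 2.87% more than 2-fold lower.

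**Figure D5:**
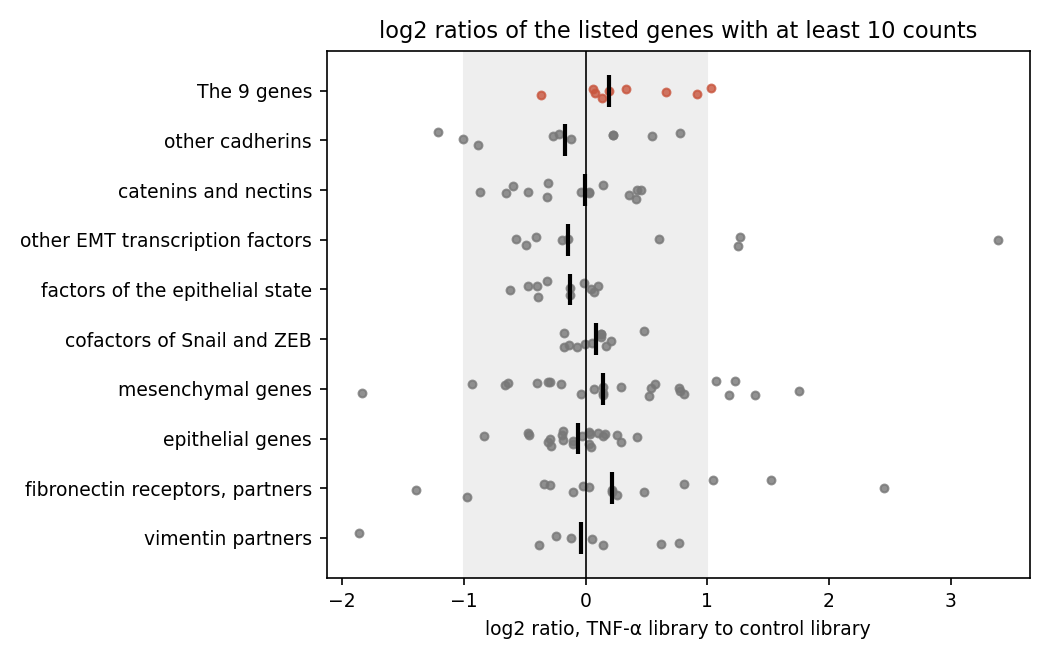
Each point is a gene with at least 10 counts, placed by its log2 ratio of TNF-α to control, with 1 row per list and a bar at each median. The grey band spans 2-fold in either direction, and Hmga2 at 3.39 and Itga4 at 2.45 lie farthest to the right. The miR-200 and miR-205 genes, of which 2 of the 6 found reached 10 counts (Mir429 and Mir205, at 0.40 and -0.32), are not drawn.

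Markers of other cell types were measured beside the mesenchymal members. The fibroblast markers all reached 10 counts, and the log2 ratio of their summed counts was -0.0035 (95% interval -0.03 to 0.02). Of these 9 genes, 7 are also on the mesenchymal list, which shares Acta2 with the basal markers. The part of fibroblasts in the values of Zeb1, Zeb2, Fn1 and Vim was not tested. Single fibroblast markers differed, with 5 log2 ratios above 0 and 4 below. Dcn stood at 1.39 and, chosen after their values were seen, Thy1 at 0.77 and Col3a1 at -0.66. The fibroblast receptor gene Pdgfra at -0.02 and Pdgfrb at -0.93 were chosen in the same way. Of the 10 luminal markers, 0 had a log2 ratio above 0 and 3 were more than 2-fold lower, namely the hormone receptor genes Esr1 (-1.48), Pgr (-1.54) and Prlr (-1.15). The 10 luminal markers summed to 3680 CPM in the control and 2611 CPM with TNF-α. Over all genes compared, 50.6% had a log2 ratio above 0 and 6.62% were more than 2-fold lower. Of the 8 basal markers, which summed to 11973 and 11040 CPM, 1 was more than 2-fold lower, the oxytocin receptor gene Oxtr at -1.19. The part of luminal and basal markers in the values of Cdh1 and Cdh3 was not tested. The 4 pericyte markers summed to 250 and 205 CPM, with Mcam, at 71.2 and 69.4 CPM, the highest per length in the control. Most of the sum came from Notch3, at 162 and 119 CPM, and Rgs5 stood at 9.15 and 7.87 CPM (both chosen after their values were seen). The 5 Schwann cell and adipocyte markers summed to 164 and 125 CPM, nearly all of it from Sox10 (162 and 124 CPM), which mammary epithelial cells also express, and Plin1 was at 0 in both libraries.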

How the data were processed

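RNA-seq of sorted mammary basal cells, cultured with or without TNF-α, gave 1 library each, although the series text speaks of a microarray. The authors deposited raw counts of reads for every gene in 1 table, beside exon coordinates, strand and length. Aligner, counter, annotation and strand setting are not given in the sources used here. The submitters' processing notes name GRCm38 and mm10. The deposited gene length, a score in bases, gave the RPKM. Of 47240 gene names shared with GENCODE M21, 91.0% had equal coordinates. Even counts were in excess (2172 control genes at 2 counts, 618 at 1), a pattern of read ends counted singly.

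Genes adding up to at least 10 counts entered TMM scaling in edgeR 4.0.16 (R 4.3.3), and the scaled TNF-α library was 1.20 times as large as the control. No model with a test was fitted, for want of replicates. Log2 ratios with a prior count of 2 were computed over the whole table (Python 3.11.15 with pandas 2.3.3, numpy 2.4.6, matplotlib 3.10.9 and scipy 1.17.1), and a gene was called past 2-fold. Changes in the ratio of 2 genes have a normal interval on log counts, and shares a Clopper-Pearson interval. The scripts were tested on simulated data. Alternatives were other scalings (DESeq2 1.42.0 size factors among them), filters, prior counts, folds, halved or thinned counts and a correction for GC content and length.

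Named genes were the 9 members, the highest and lowest of each pathway list, up to 3 more of it past 2-fold with at least 200 counts and, of each marker list, the highest per length in the control and any past 2-fold with at least 200 counts. One gene that this rule names is not reported here. Exceptions are marked, apart from the miR-200 genes, the genes that overlap members, and markers at 0 or defining a cell type. Likeness of pattern was not ranked, since 2 libraries give 1 ratio. The members and lists were chosen with earlier results of these data known.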

Additional observations from a re-analysis of the deposited data

How the results depend on the processing

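No paired analysis was possible because control and TNF-α stood on a single library apiece, so none was left out either. Zeb2 stayed more than 2-fold higher under the 4 other planned scalings, both filters, both prior counts, halved or thinned counts and the correction for GC content and length, with log2 ratios from 1.01 to 1.08. Of the 9 genes, 0 were more than 2-fold higher when the whole counting interval had to pass the fold, and 3 were higher at a fold of 1.5, because these thresholds differ in strictness. With that correction the Fn1 log2 ratio moved outside its counting interval, to 0.82, and the cause was not tested. The other member values, 107 in all, stayed within their counting intervals. Snai1 ranged from -0.11 to 0.09, and no value could be given for it with at least 1 CPM in a library. Over the pathway lists, no filter gave 15 genes more than 2-fold higher in place of 11 and 9 lower in place of 5, as genes under 10 counts then entered. The lower count was 4 with DESeq2 size factors, a prior count of 5, halved counts or the correction for GC content and length, each time by the loss of Cdh13. Cdh13 was also lost in the thinned library, where Spock1 passed 2-fold downward instead, and Twist2 dropped out with at least 1 CPM in a library. Medians near 0 changed sign in 5 lists. Beside the other cadherins and EMT factors described above, these were the catenins and nectins (up to 0.04), the vimentin partners (up to 0.08) and the miR-200 and miR-205 genes (0.04, down to -0.50 in the thinned library). A fold of 1.5 gave 17 higher and 15 lower. Chosen after seeing the data were a scaling without the listed genes and the addition of Apol7d reads to Fn1, which left all 9 members within their intervals. Depth limits Snai1 and Twist1, with 54 and 102 counts over both libraries.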
